A study of Mus musculus with 6 samples.

Results

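The genes examined were *S100a4*, *S100a6*, *S100a8*, *S100a9*, *S100a10*, *S100a11* and *S100a13*, the S100 calcium-binding protein genes expressed in myeloid cells, in the bone marrow of *MxCDX2* and control mice. They were taken by symbol from the 39179 genes of the count files, through their Ensembl identifiers and GENCODE M21, and all 7 were found and were among the 15980 genes with enough reads to be tested. The study switched on human *CDX2*, an intestinal homeobox gene, in blood-forming cells and sequenced bone marrow mRNA. The 3 *MxCDX2* mice had the genotype *RsCDX2::Mx1Cre*: the human coding sequence sits in *Rosa26* behind a stop sequence that Cre removes, and Cre is under the *Mx1* promoter, which interferon switches on and which is active outside blood cells as well. The control group was a mouse of each of 3 genotypes, *RsCDX2* (control 1), *Mx1Cre* (control 2) and wild type (control 3), so that no control genotype was replicated. All 6 mice were littermates of age 3 months, all received poly(I:C) intraperitoneally (3 injections of 10 µg/g), which induces interferon, and RNA was taken 6 weeks later from whole marrow.

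S100 proteins are small proteins of the EF-hand family that change shape on binding calcium and then bind other proteins. S100A8 and S100A9 pair to form calprotectin, which fills the cytosol of neutrophils, withholds zinc and manganese from microbes and, once released, signals through the receptors TLR4 and RAGE. S100A4 binds non-muscle myosin, S100A10 joins annexin A2 and unlike its relatives does not need calcium to do so, S100A11 binds annexin A1, S100A6 binds calcyclin-binding protein and annexins, and S100A13 takes part in the release of FGF1 and interleukin 1 alpha from cells.

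*S100a8* and *S100a9*, the genes of calprotectin, fell 2.89-fold and 2.94-fold in *MxCDX2* marrow, while *S100a4* rose 3.55-fold. *S100a10* was 1.83-fold higher and *S100a11* 1.82-fold lower, differences that had adjusted p-values under 0.05 but did not reach a change of 2-fold. *S100a6* and *S100a13* did not pass the test and their groups overlapped.

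All 7 genes lie on chromosome 3 of GRCm38. In the RefSeq promoter table (GRCm38.p6) 6 of them were matched by symbol, all but *S100a10*. For the 3 genes that passed the thresholds and for *S100a11*, 100 bases are shown from 70 bases before the RefSeq start to 30 bases from it, in the direction of transcription, because they show what the start regions of the genes share and where they differ. Capitals mark TATAAA, the core of the TATA box.

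*S100a8* (chr3:90669001-90669100, plus strand): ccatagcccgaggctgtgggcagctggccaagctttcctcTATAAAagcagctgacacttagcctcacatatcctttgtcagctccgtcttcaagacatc
*S100a9* (chr3:90695692-90695791, minus strand): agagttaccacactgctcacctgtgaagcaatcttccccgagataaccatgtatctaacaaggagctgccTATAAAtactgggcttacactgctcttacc
*S100a4* (chr3:90603700-90603799, plus strand): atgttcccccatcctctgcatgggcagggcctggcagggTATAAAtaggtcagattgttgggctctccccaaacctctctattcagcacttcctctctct
*S100a11* (chr3:93520426-93520525, plus strand): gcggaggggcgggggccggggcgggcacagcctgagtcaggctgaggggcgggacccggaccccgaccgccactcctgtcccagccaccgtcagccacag

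TATAAA begins 31 bases before the RefSeq start of *S100a4*, 30 bases before that of *S100a8*, and at the first base of the annotated start of *S100a9*. Over windows of 250 bases before to 50 bases from the start, searched on both strands, 13.6% of 32817 RefSeq promoters hold it, and those of *S100a6*, *S100a11* and *S100a13* do not. This motif was chosen after the sequences were seen. ATAAA, the core of the CDX site, is in 40.0% of these windows, and its matches in *S100a4*, *S100a8* and *S100a9* are the last 5 bases of the same TATAAA. *S100a6* holds ATAAA on the minus strand, with its outermost base 234 bases before the start. TTGCNNAA, a form of the C/EBP site, is in 10.8% of windows and, among the 6 genes, only in that of *S100a9*, 236 bases before its start. The shown bases of *S100a11* have a GC content of 78.0%, against 52.0% for *S100a8*, 46.0% for *S100a9* and 53.0% for *S100a4*. For *S100a8* the RefSeq start lies 93 bases downstream of the GENCODE gene start, so positions count from RefSeq's. A match of letters is a description of the sequence and does not show that a protein binds there.

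Values of single mice are given in the order of mouse 1, 2 and 3 of each group throughout. Between 38646101 and 49899650 reads per mouse were counted on genes. Reads on mouse *Cdx2*, on which reads of the introduced coding sequence could be counted, were 4, 0 and 0 in the control mice and 152, 155 and 183 in the *MxCDX2* mice. The wild-type control stood apart on the second principal component, with 15.4% of the variance. Its summed promyelocyte markers were 40339 normalized counts against 206828 and 161925 for controls 1 and 2, and its summed megakaryocyte markers 299187 against 35566 and 26109. Where leaving it out changed the call of a named gene, the value without it is given. Other values that moved without it are given in part, and log2 fold changes near 0 and ratios may differ without it. All 13 erythroid markers fell (9 to 13 with each mouse left out in turn, median log2 fold change -3.60, *Hba-a1* -4.24, *Hba-a2* -4.22, *Hbb-bs* -4.19), and they took 4.01% to 4.90% of counts in the control group but 0.14% to 0.51% in the *MxCDX2* group. Marrow was sequenced in bulk, so a lower value may mean fewer cells of a type or less RNA per cell, which cannot be told apart here.

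Normalized counts are reads on a gene after TMM scaling of each library to a common size, the average of the 6 mice. Log2 fold changes compare *MxCDX2* with control. Standard errors (SE) and adjusted p-values come from the quasi-likelihood test of edgeR, adjusted by Benjamini and Hochberg's method over all 15980 genes. A gene passed the thresholds when its log2 fold change was over 1 in size and its adjusted p under 0.05. By these thresholds 1 of the 7 genes was higher, where 4.59% of all tested genes were higher, and 2 of 7 were lower, where 9.03% of all were lower. With the adjusted p alone, at any fold change, 2 of 7 were higher beside 9.91% of all genes, and 3 of 7 were lower beside 11.8%. In 5 of the 7 the values of the groups did not overlap, which was so for 42.1% of all genes tested. The median log2 fold change of the 7 was -0.32 and that of all tested genes 0.0021. With 7 genes, chosen with earlier results of these data known, these counts are descriptions and were not tested against the background.

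**Figure D1:**
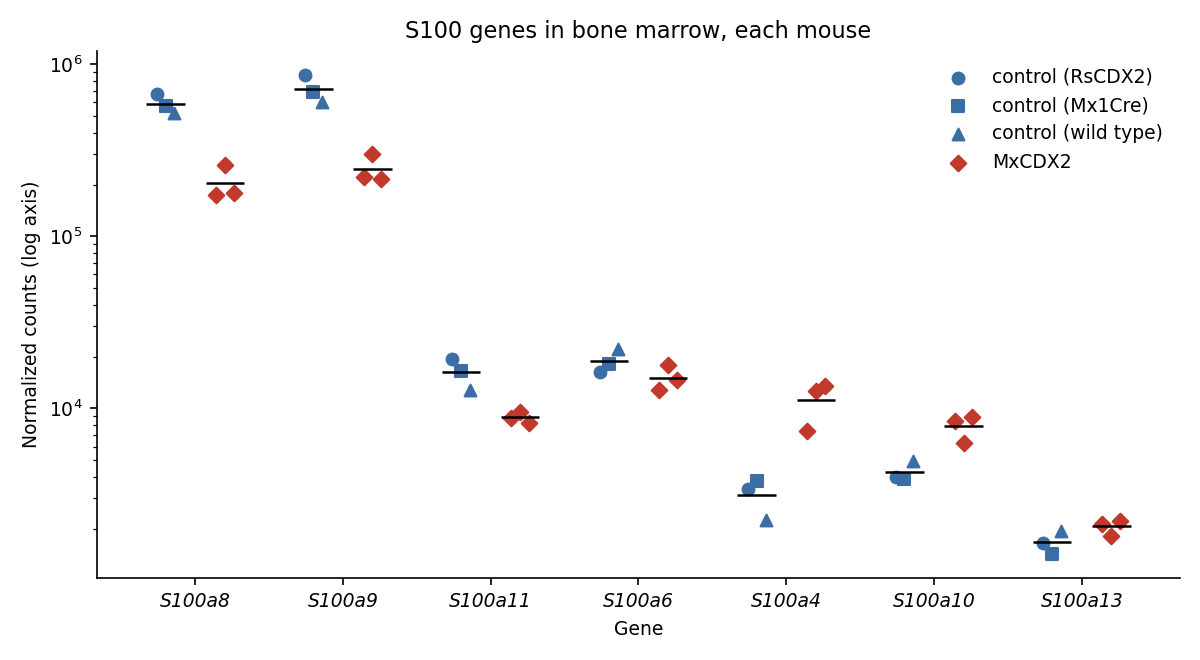
Normalized counts of the 7 S100 genes on a log axis, with a point for each mouse and a line at each group mean. Circle, square and triangle are the *RsCDX2*, *Mx1Cre* and wild-type control mice and diamonds the 3 *MxCDX2* mice. The *MxCDX2* mice lie below all control mice for *S100a8*, *S100a9* and *S100a11* and above them for *S100a4* and *S100a10*.

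*S100a8* (ENSMUSG00000056054, chromosome 3 from 90668978 to 90670035, plus strand) had 672641, 573784 and 519517 normalized counts in the control mice and 173204, 259036 and 179676 in the *MxCDX2* mice. Every *MxCDX2* mouse was below every control mouse, and *MxCDX2* mouse 2 was the highest of its group. The group means, 588647 ± 77636 (SD, n = 3) and 203972 ± 47797 (SD, n = 3), gave a log2 fold change of -1.53 (SE 0.31, adjusted p = 0.0166 from edgeR). *S100a9* (ENSMUSG00000056071, chromosome 3 from 90692632 to 90695721, minus strand) had 869635, 692943 and 602596 normalized counts in the control mice and 220146, 299366 and 216188 in the *MxCDX2* mice. The order of the control mice was that of *S100a8*, and *MxCDX2* mouse 2 was again the highest of its group. The log2 fold change of *S100a9* was -1.56 (SE 0.33, adjusted p = 0.0183 from edgeR), with means of 721725 ± 135826 (SD, n = 3) and 245233 ± 46922 (SD, n = 3).

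The calls of the calprotectin genes depended on single mice of the *MxCDX2* group. Without *MxCDX2* mouse 1 the log2 fold changes were -1.42 for *S100a8* (adjusted p = 0.0689 from edgeR) and -1.48 for *S100a9* (adjusted p = 0.0752 from edgeR). Without *MxCDX2* mouse 3 they were -1.44 (adjusted p = 0.116 from edgeR) and -1.47 (adjusted p = 0.127 from edgeR). Both genes passed when any other mouse was left out, the wild-type control included.

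*S100a8* and *S100a9* were among the most abundant transcripts of the marrow. Together they took 3.12%, 2.66% and 2.48% of all reads counted on genes in the control mice, and 0.875%, 1.31% and 0.911% in the *MxCDX2* mice. With reads on the 13 erythroid markers taken out of the total, the shares were 3.25%, 2.80% and 2.61% in the control group and became 0.879%, 1.31% and 0.914% in the *MxCDX2* group. By number of reads, *S100a9* ranked 2 and *S100a8* ranked 3 among all genes in each control mouse, and they ranked 7, 1 and 4 and 9, 4 and 7 in the *MxCDX2* mice. In *MxCDX2* mouse 2 *S100a9* was therefore the gene with the most reads, although its share of reads there was under that of every control mouse.

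**Figure D2:**
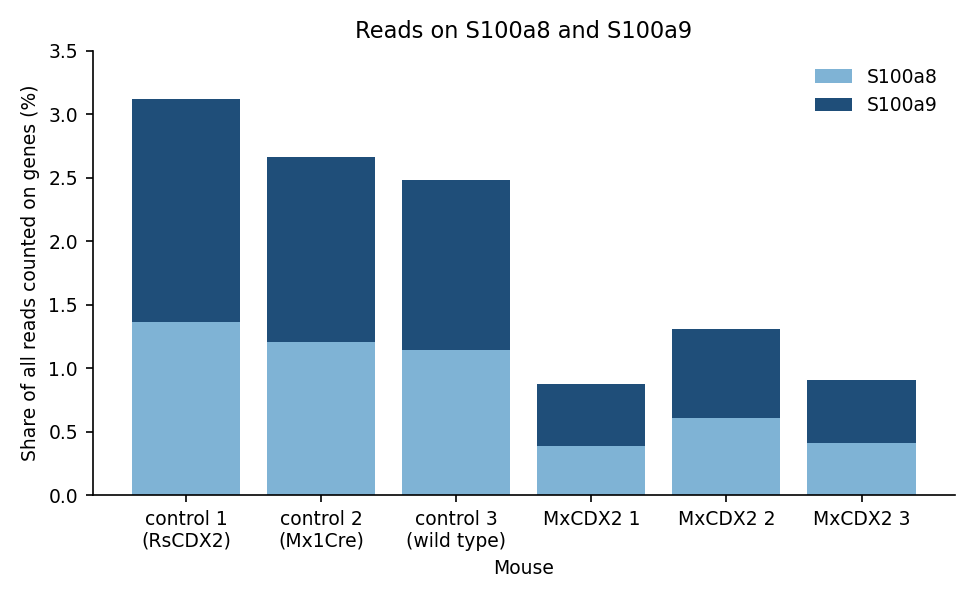
Share of all reads counted on genes that fell on *S100a8* (light) and *S100a9* (dark), in percent, stacked for each mouse. The stacked share was 2.48% to 3.12% in the 3 control mice and 0.875% to 1.31% in the 3 *MxCDX2* mice.

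The proportion of the subunit genes to each other differed by less than the spread between mice. Per kilobase of exon, the ratio of *S100a8* to *S100a9* was 0.582, 0.623 and 0.649 in the control mice and 0.592, 0.651 and 0.625 in the *MxCDX2* mice. The groups overlapped, with mean log2 ratios of -0.70 ± 0.079 (SD, n = 3) and -0.68 ± 0.069 (SD, n = 3), a difference of 0.012 (two-sided exact permutation test over mice, p = 0.70). The smallest two-sided p that 3 mice against 3 can give is 0.10, and with each mouse left out in turn the difference lay between -0.031 and 0.048. Among all tested genes, *S100a9* was also the one whose pattern over the 6 mice was nearest to that of *S100a8*, with a root mean square distance of 0.061 between centred log2 normalized counts. The next nearest to *S100a8* were *Plbd1* (0.085), *Ublcp1* (0.136), *AV099323* (0.142) and *Itgb2l* (0.145). After *S100a8*, those nearest to *S100a9* were *Plbd1* (0.103), *Aph1b* (0.120), *Lcn2* (0.123) and *Bmpr1a* (0.142). *Itgb2l*, a leukocyte integrin subunit, and *Lcn2*, the siderophore-binding lipocalin of neutrophil granules, are among the neutrophil maturation markers.

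Other markers of maturing neutrophils were lower in the same mice. Of 15 such markers, all tested, 11 fell, none rose and 4 did not pass, with a median log2 fold change of -1.59. With each mouse left out in turn, 7 (without *MxCDX2* mouse 3) to 13 (without control 3) of them fell. The largest falls were those of *Chil3*, a chitinase-like protein (log2 fold change -2.79), *Retnlg*, a resistin-like secreted protein (-2.41), and *Fpr1*, a formyl peptide receptor (-2.14). *Ngp*, a granule protein, had a log2 fold change of -1.06 (SE 0.35, adjusted p = 0.0762 from edgeR) and did not pass, but it did without control 3, at -1.28 (adjusted p = 0.0148 from edgeR). The summed normalized counts of the 15 markers were 2083232, 1741314 and 1142556 in the control mice and 580362, 746785 and 569943 in the *MxCDX2* mice. The log2 ratio of *S100a8* to this sum was -1.63, -1.60 and -1.14 in the control mice and -1.74, -1.53 and -1.67 in the *MxCDX2* mice. The groups overlapped, with a difference of -0.19 (exact permutation test, p = 0.40). It was -0.030 without control 3, whose ratio stood above the rest, and lay between -0.28 and -0.030 with each mouse left out in turn. For *S100a9* the ratio to the same sum was -1.26, -1.33 and -0.92 in the control mice and -1.40, -1.32 and -1.40 in the *MxCDX2* mice. The difference was -0.20 (exact permutation test, p = 0.20), again with overlap and with control 3 above the rest. The ratios of *S100a8* and *S100a9* to this sum were 2 of 21 ratios of an S100 gene to a summed marker list. None of the 21 had a Benjamini-Hochberg adjusted exact p under 0.15. No adjusted value could be under 0.10, the smallest exact p of 3 mice against 3, so these values cannot show that a ratio was unchanged.

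*S100a4* was the S100 gene that rose. S100A4, also known as metastasin, is made by monocytes, macrophages and lymphocytes. The gene (ENSMUSG00000001020, chromosome 3 from 90603771 to 90606045, plus strand) had 3406, 3760.4 and 2238 normalized counts in the control mice and 7368, 12567 and 13408 in the *MxCDX2* mice. The values of the *MxCDX2* mice all exceeded those of the control mice, with the wild-type control lowest. The group means, 3135 ± 796 (SD, n = 3) and 11114 ± 3272 (SD, n = 3), gave a log2 fold change of 1.83 (SE 0.29, adjusted p = 0.00725 from edgeR). It passed with each mouse left out in turn, with log2 fold changes from 1.65 to 2.05, but not when the null hypothesis allowed log2 changes up to 1 (adjusted p = 0.0714 from edgeR). In GENCODE M21 51.7% of the exon length of *S100a4* is shared with *Gm42674* on the same strand. *Gm42674* is not among the counted genes, so reads of the overlap could not be counted on it. Which of the genes such reads came from is not certain.

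By number of reads *S100a4* ranked 3359, 3020 and 4667 in the control mice and 1338, 594 and 555 in the *MxCDX2* mice. Of all reads on the 7 S100 genes, *S100a4* took 0.215%, 0.287% and 0.192% in the control mice and 1.70%, 2.07% and 3.02% in the *MxCDX2* mice. The genes nearest to *S100a4* in pattern were *Abcd2* (distance 0.139), *Gm21814* (0.181), *Sulf2* (0.214), *Raph1* (0.228) and *Dusp22* (0.233). All 5 rose past the thresholds, but they were picked for nearness to a gene that rose, so their rise adds no support. These distances describe 6 mice that share their libraries.

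Monocyte markers were higher in the same mice. Of 14, all tested, 9 rose, none fell and 5 did not pass, with a median log2 fold change of 1.41. With each mouse left out in turn, 7 to 10 (without control 3) of them rose, and 1 fell without control 2. *F13a1*, the A chain of coagulation factor XIII, led with 3.06, followed by *Ccr2*, the chemokine receptor of inflammatory monocytes (2.75), and *Ms4a6c* (2.38). The summed normalized counts of the list were 371664, 359599 and 272745 in the control mice and 603131, 691891 and 708915 in the *MxCDX2* mice. *Lyz2* was the largest part, with a mean of 247187 of 334669 in the control group and 290015 of 667979 in the *MxCDX2* group. Its groups overlapped (log2 fold change 0.23, SE 0.27, adjusted p = 0.589 from edgeR), so the gene with the most counts in the sum did not pass. The rise of the sum came mostly from other markers, among them *F13a1*, with means of 13641 in the control group and 113831 in the *MxCDX2* group. The log2 ratio of *S100a4* to the summed monocyte markers was -6.77, -6.58 and -6.93 in the control mice and -6.36, -5.78 and -5.72 in the *MxCDX2* mice. The groups did not overlap, with a difference of 0.81 (exact permutation test, p = 0.10, adjusted p = 0.15 over the 21 ratios). Its sign was not the same for each marker: against single monocyte markers the difference ranged from -1.36, for *F13a1*, to 2.62, and was below 0 for 6 of 14. The part that monocyte numbers have in the rise of *S100a4* was not tested.

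Promyelocyte markers, of the granulocyte precursors that come before the neutrophil stages rich in calprotectin, included 7 tested genes, of which 3 rose, none fell and 4 did not pass. Those that rose were *Ctsg*, a granule protease (log2 fold change 2.32), *Ms4a3*, a marker of granulocyte and monocyte progenitors (2.25), and *Gstm1*, a glutathione transferase (1.23). The median of the list was 0.78. Control 3 was low for this list, and without it *Ctsg* (1.92) and *Ms4a3* (1.85) still rose, *Gstm1* was at 0.98, under the fold threshold, *Fcnb* fell (-1.12) and the median was 0.39. Without control 2, or without any 1 of the *MxCDX2* mice, none of the 7 passed with edgeR, at medians of 0.74 to 0.90. Against the summed promyelocyte markers, *S100a8* was lower by a log2 difference of -2.54 without overlap (exact permutation test, p = 0.10).

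**Figure D3:**
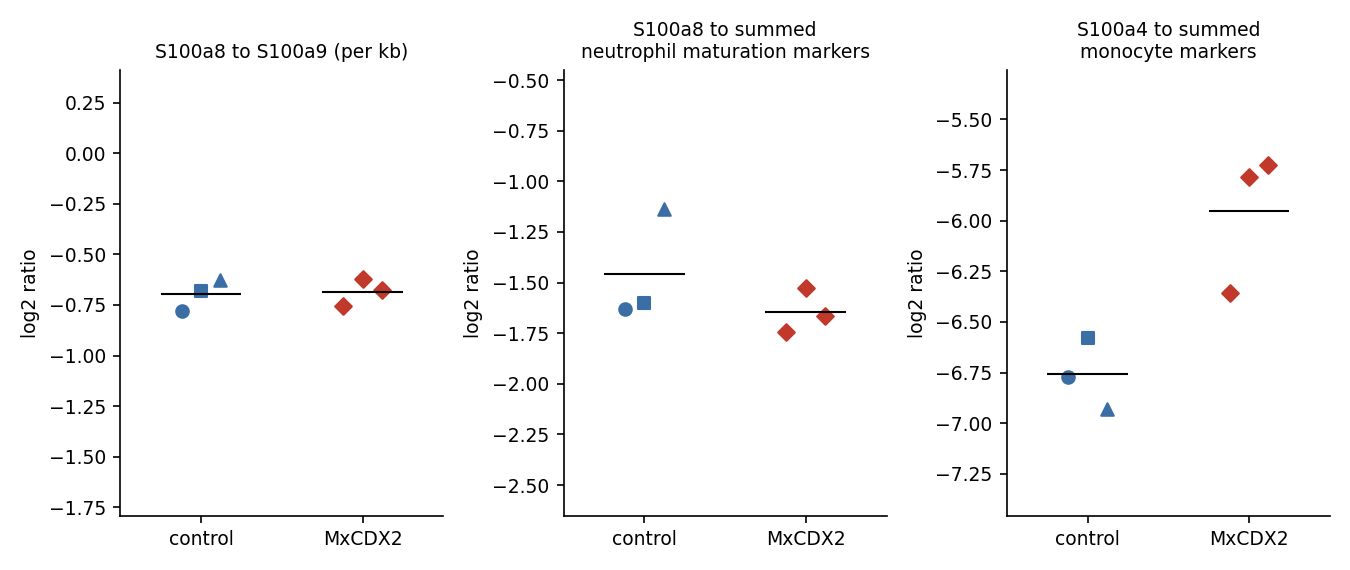
Per-mouse log2 ratios of *S100a8* to *S100a9* per kilobase (left), of *S100a8* to the summed neutrophil maturation markers (middle) and of *S100a4* to the summed monocyte markers (right). Circle, square and triangle are the *RsCDX2*, *Mx1Cre* and wild-type control mice, diamonds the *MxCDX2* mice and lines the group means, and each axis spans the same range of log2 units. The groups overlap in the left and middle panels and lie apart in the right one, where the difference was 0.81. *Lyz2* was the largest part of the summed monocyte markers.

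*S100a10* and *S100a11*, whose proteins bind annexin A2 and annexin A1, moved in opposite directions, each by less than 2-fold. *S100a10* (ENSMUSG00000041959, chromosome 3 from 93555080 to 93564643, plus strand) had 4018, 3909 and 4951 normalized counts in the control mice and 8442, 6304 and 8883 in the *MxCDX2* mice. The groups did not overlap, with *MxCDX2* mouse 2 nearest to the control mice. The log2 fold change was 0.88 (SE 0.17, adjusted p = 0.0133 from edgeR), under the fold threshold. It went just past that threshold without control 3, at 1.01 (adjusted p = 0.00898 from edgeR), and without *MxCDX2* mouse 2, at 1.02 (adjusted p = 0.0135 from edgeR). Without *MxCDX2* mouse 3 it was 0.79 (adjusted p = 0.0580 from edgeR).

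*S100a11* (ENSMUSG00000027907, chromosome 3 from 93520488 to 93526287, plus strand) had 19328, 16429.7 and 12769 normalized counts in the control mice and 8846, 9508 and 8260.3 in the *MxCDX2* mice. All *MxCDX2* mice were below all control mice, and the *MxCDX2* values were closely spaced, with a coefficient of variation of 7.0% against 20.3% in the control mice. The log2 fold change was -0.87 (SE 0.17, adjusted p = 0.0143 from edgeR), and -0.81 without *MxCDX2* mouse 3 (adjusted p = 0.0728 from edgeR). Its ratio to the summed neutrophil maturation markers was higher in *MxCDX2* mice without overlap, by 0.51 on the log2 scale (exact permutation test, p = 0.10). The ratio of *S100a10* to the summed monocyte markers overlapped between groups, with a difference of -0.14 (exact permutation test, p = 0.70). On the log2 scale it was -6.53, -6.52 and -5.78 in the control mice and -6.16, -6.78 and -6.32 in the *MxCDX2* mice. Controls 1 and 2 were below the *MxCDX2* mean of -6.42, so the sign of the difference rests on control 3.

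The partners of these proteins were followed in a list of annexins and other binding proteins, in which 16 of 18 genes were tested, 3 rose and 5 fell. *Ahnak*, the giant scaffold protein that binds the complex of S100A10 and annexin A2, rose from 10625, 15827 and 10636 normalized counts in the control mice to 40820.1, 45758 and 35423 in the *MxCDX2* mice (log2 fold change 1.72, SE 0.21, adjusted p = 0.00329 from edgeR). *Anxa6* (1.29) and *Anxa5* (1.21), annexins that bind membranes in the presence of calcium, were the other two that rose. *Anxa2*, the partner of *S100a10*, had 20816, 21385 and 18164 normalized counts in the control mice and 28734, 30644 and 32280.3 in the *MxCDX2* mice, with no overlap and a log2 fold change of 0.60 (SE 0.13, adjusted p = 0.0183 from edgeR) under the fold threshold. *Anxa1*, the partner of *S100a11*, fell from 65985, 65161 and 56545 to 21752, 29083 and 24837 (log2 fold change -1.31, SE 0.17, adjusted p = 0.00375 from edgeR). In these values *S100a10* and *Anxa2* were both higher, and *S100a11* and *Anxa1* both lower, in every *MxCDX2* mouse than in every control mouse.

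The other genes of the partner list that fell were *Myh10*, a non-muscle myosin heavy chain (log2 fold change -3.40), *Fgf1*, the growth factor whose release involves S100A13 (-2.999), *Tgm2*, a transglutaminase (-1.80), and *Tpm1*, a tropomyosin (-1.62). *Tpm1* had 4595, 3764 and 12304 normalized counts in the control mice and 2276, 2054 and 2381 in the *MxCDX2* mice. Without control 3 its log2 fold change was -0.88, under the fold threshold, and *Fgf1* was at -2.29 (adjusted p = 0.0539 from edgeR). With each mouse left out in turn, 3 genes of the list rose every time and 2 to 4 fell, the lowest number being without *MxCDX2* mouse 2 and the highest without control 1. *Myh9*, the myosin heavy chain known to bind S100A4, had a log2 fold change of -0.10 (SE 0.18, adjusted p = 0.728 from edgeR). The median of the list was -0.38, and -0.18 without control 3.

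*S100a6* and *S100a13* were the members whose groups overlapped. *S100a6* (ENSMUSG00000001025, chromosome 3 from 90612882 to 90624181, plus strand) had 16197, 18042 and 22118 normalized counts in the control mice and 12868, 17782 and 14627 in the *MxCDX2* mice. Only *MxCDX2* mouse 2 reached into the control range, and the log2 fold change was -0.32 (SE 0.18, adjusted p = 0.247 from edgeR). Without control 3, the highest of the control mice, it was -0.16 (adjusted p = 0.514 from edgeR), and with each mouse left out it lay between -0.45 and -0.16. *S100a13* (ENSMUSG00000042312, chromosome 3 from 90514435 to 90524581, plus strand) had 1645, 1427 and 1941 normalized counts in the control mice and 2129, 1816 and 2229 in the *MxCDX2* mice, a log2 fold change of 0.30 (SE 0.15, adjusted p = 0.204 from edgeR). *Cacybp*, which encodes calcyclin-binding protein, the partner of S100A6, had a log2 fold change of 0.11 (SE 0.20, adjusted p = 0.747 from edgeR).

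Per kilobase of exon, which allows levels to be compared between genes, the mean normalized counts in control mice were 1382615 for *S100a9*, 848195 for *S100a8*, 31655 for *S100a11*, 13742 for *S100a6*, 5368 for *S100a4*, 3542 for *S100a10* and 2337 for *S100a13*. In *MxCDX2* mice the order was *S100a9* (469796 per kilobase), *S100a8* (293908), *S100a4* (19032), *S100a11* (17361), *S100a6* (11040.4), *S100a10* (6499) and *S100a13* (2879). *S100a4* thus moved from rank 5 to rank 3 of the 7. In the control mice the ranges of neighbours in this order did not overlap, except that *S100a4* (3833 to 6439 per kilobase) overlapped *S100a10* (3226 to 4085). In the *MxCDX2* mice the range of *S100a4* (12616 to 22959.7 per kilobase) enclosed that of *S100a11* (16165 to 18606) and overlapped that of *S100a6* (9413 to 13008), so the order of these is not settled by the spread of the mice. Exon lengths were the union over all transcripts of a gene and do not account for which transcript was used.

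**Figure D4:**
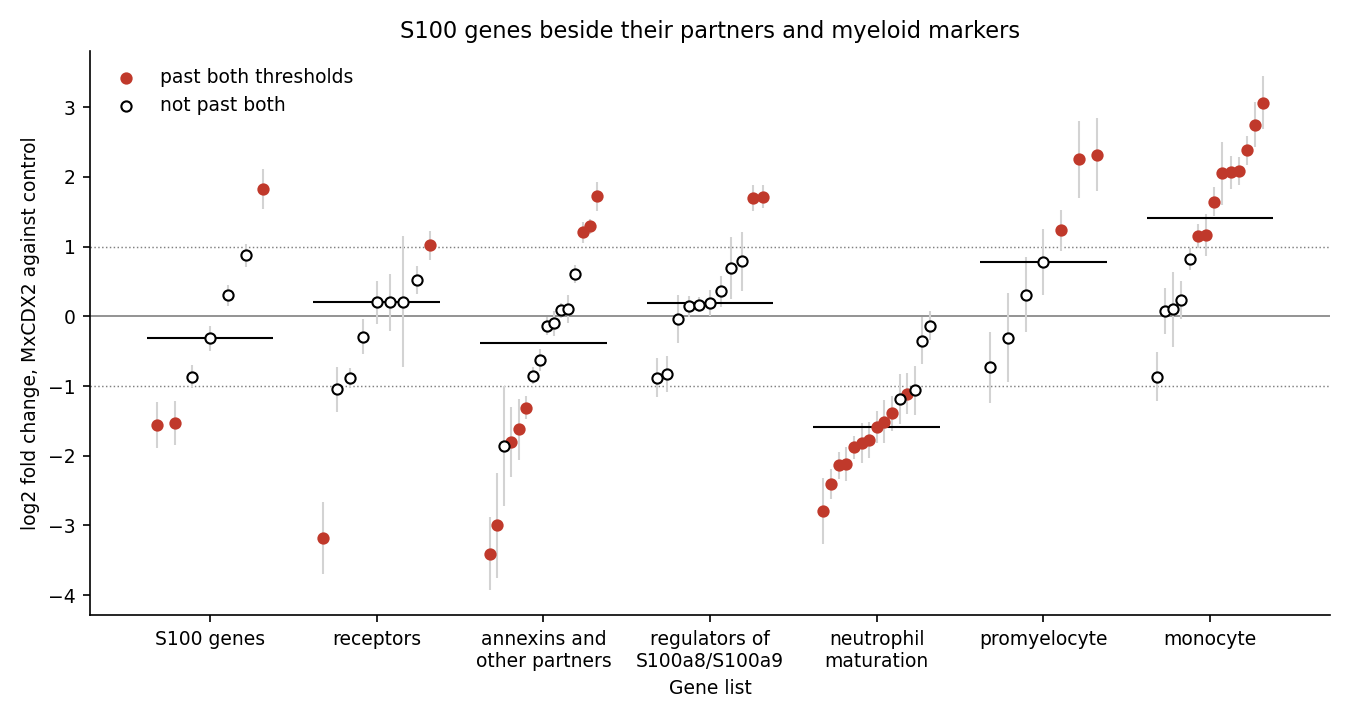
Log2 fold changes (points) with standard errors (bars) of all tested genes of 7 lists, ordered by value within each list, with the list median as a line. Filled points passed both thresholds, and dotted lines mark log2 fold changes of -1 and 1. The S100 genes spread over both signs, the neutrophil maturation markers lie below 0 with a median of -1.59 and the monocyte markers have a median of 1.41.

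Genes of receptors for S100 proteins showed a single rise and a single fall among 9 tested. *Emb*, embigin, a receptor of calprotectin, had 13474, 11807 and 9192 normalized counts in the control mice and 24756, 18191 and 26897 in the *MxCDX2* mice (log2 fold change 1.02, SE 0.21, adjusted p = 0.0164 from edgeR). It was 0.90 without control 3, under the fold threshold, and no receptor gene rose past the thresholds without control 3 or without *MxCDX2* mouse 1 or 3. Its relative *Bsg*, basigin, was lower without overlap, at 16939, 16772 and 18329.5 against 10733, 7603 and 9851, but under the fold threshold (log2 fold change -0.88, SE 0.15, adjusted p = 0.00917 from edgeR). *Cd36*, a scavenger receptor also made by erythroid precursors, fell (log2 fold change -3.18, SE 0.52, adjusted p = 0.00822 from edgeR). *Tlr4*, the Toll-like receptor of calprotectin, had a log2 fold change of -0.29 (SE 0.25, adjusted p = 0.451 from edgeR), and *Ager*, which encodes RAGE, of 0.20 (SE 0.41, adjusted p = 0.771 from edgeR). *Cd14*, the co-receptor of TLR4, varied widely among control mice, with 16091, 834 and 3184 normalized counts, and had 11011, 4914 and 7349.7 in the *MxCDX2* mice (log2 fold change 0.21, SE 0.94, and -0.10 without control 3).

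Of 11 genes for transcription factors linked to *S100a8* and *S100a9*, 2 rose and none fell. *Cebpa*, a C/EBP factor of early myeloid cells, had 2422, 2471.5 and 2167 normalized counts in the control mice and 6821, 6775 and 9601 in the *MxCDX2* mice (log2 fold change 1.72, SE 0.16, adjusted p = 0.00191 from edgeR). *Atf3*, a stress-response factor, rose by 1.70 (SE 0.19, adjusted p = 0.00253 from edgeR). *Cebpe*, the C/EBP factor of late granulocyte maturation, had 7539, 6763 and 3432 normalized counts in the control mice and 3284, 3287 and 3075 in the *MxCDX2* mice. Its groups did not overlap, but the wild-type control was near the *MxCDX2* mice and the log2 fold change of -0.88 did not pass (SE 0.28, adjusted p = 0.0652 from edgeR). Without control 3 *Cebpe* fell, at -1.13 (adjusted p = 0.00216 from edgeR), as did *Klf5* (-1.03). *Spi1*, which encodes PU.1, had a log2 fold change of 0.14 (SE 0.15, adjusted p = 0.536 from edgeR), and of 0.03 without control 3.

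None of the other S100 genes listed passed the test. Of these 11, 6 were tested, and edgeR gave 0 of them an adjusted p under 0.05 and 0 an unadjusted p under 0.05. *S100a1*, the most abundant of them by reads per kilobase of exon, had 1518, 920.5 and 1813 normalized counts in the control mice and 1317, 1527 and 1760.2 in the *MxCDX2* mice (log2 fold change 0.11, SE 0.26, adjusted p = 0.788 from edgeR). Without control 3 its log2 fold change was 0.35, that of *S100a16* -0.52 and that of *S100b* -0.59, none past the test. *S100a16* had at most 252 normalized counts in a mouse and a log2 fold change of -1.23 (SE 0.64, adjusted p = 0.218 from edgeR). *S100b*, a gene of glia and other cells on chromosome 10, had at most 56.5 normalized counts and was lower in every *MxCDX2* mouse, with a log2 fold change of -1.17 (SE 0.50, adjusted p = 0.148 from edgeR). *S100a3* and *S100a7a* had at most 14 and 21 raw reads in any mouse, with log2 fold changes of -0.09 and -0.51. That of *S100a3* was 0.14 without control 3, a change of sign. *S100pbp*, which encodes an S100-binding protein, had a log2 fold change of 0.07 (SE 0.14, adjusted p = 0.739 from edgeR), and of 0.04 without control 3. *S100a2* had at most 10 reads and was not tested, nor were 4 further genes with fewer reads than that.

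The 7 genes and most of their relatives stand side by side in the genome, and their changes differed in direction. From *S100a13* to *S100a9* the cluster spans 181.3 kb, and *S100a11* and *S100a10*, 28.8 kb apart, lie 2.82 Mb beyond. *S100a4* and *S100a6* have 6.8 kb between them, where *S100a5* lies, and 1 of these 2 rose while the other did not pass. *S100a8* and *S100a9*, on opposite strands with 22.6 kb between them, both fell. Between the outer ends of *S100a13* and *S100a10* (chromosome 3 from 90514435 to 93564643) the files list 81 genes, of which 14 were tested. None of the 7 tested genes there outside the set passed the thresholds, beside 4.59% of all tested genes that were higher and 9.03% lower. None passed the adjusted p alone with edgeR, beside 9.91% and 11.8% of all. The median log2 fold change of these 7 was -0.51. All of them but *Gm4202* had at most 252 normalized counts in any mouse, so these values say little about the region. The nearest to the threshold was *Pglyrp4*, which encodes a peptidoglycan recognition protein and is next to *S100a9*, with 34.5, 44.7 and 19.1 normalized counts in the control mice and 12.7, 9.8 and 13.1 in the *MxCDX2* mice (log2 fold change -1.45, SE 0.42, adjusted p = 0.0502 from edgeR).

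**Figure D5:**
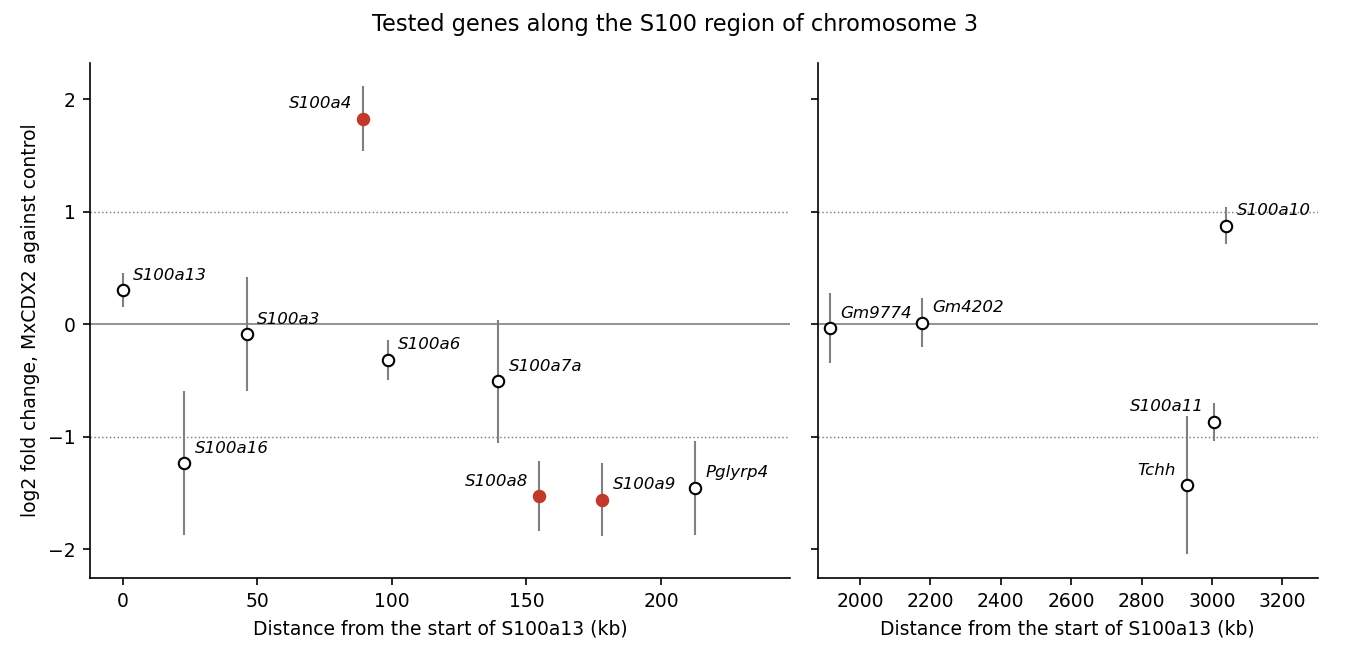
Log2 fold change (points) with standard error (bars) of each tested gene of the S100 region of chromosome 3, by distance in kb from the start of *S100a13*. The left panel shows the cluster around *S100a8* and *S100a9* and the right panel the genes near *S100a11* and *S100a10*, with the stretch between them left out. Filled points, *S100a4*, *S100a8* and *S100a9*, passed both thresholds, and dotted lines mark log2 fold changes of -1 and 1.

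Markers of other cell types fell or did not pass with all 6 mice. Of B cell markers 5 of 9 fell (among them *Ms4a1* -2.41 and *Cd79a* -2.01 in log2 fold change), of T and NK cell markers 2 of 9 (*Klrb1c* -1.60, and -1.05 without control 3, *Cd2* -1.58), of megakaryocyte markers 2 of 7 (among them *Gp9* -3.73, and -1.92 without control 3), of eosinophil, basophil and mast cell markers 3 of 8 (*Fcer1a* -1.59, *Mcpt8* -1.42, *Ms4a2* -1.06), and of stromal and endothelial markers 2 of 9 (*Cxcl12* -1.81, *Cdh5* -1.73). Without control 3 the stromal and endothelial markers had no gene past the thresholds with edgeR (*Cxcl12* -1.23, *Cdh5* -1.21) and *Fcer1a* did not pass (-1.40). With each mouse left out in turn, 0 to 8 B cell, 0 to 2 T and NK cell, 0 to 5 megakaryocyte, 1 to 2 eosinophil, basophil and mast cell, and 0 to 3 stromal and endothelial markers fell. None of these lists had a gene that rose past the thresholds with all 6 mice. *Siglecf*, an eosinophil marker, was higher without overlap, at 1168, 704 and 408 normalized counts in the control mice and 1630, 1688 and 1570 in the *MxCDX2* mice. Its log2 fold change was over 1, but it did not pass (adjusted p = 0.069 from edgeR). Of the left-out fits, only that without control 1 had a rise in these lists, of 1 eosinophil, basophil and mast cell marker. The part of these cells in the S100 values was not tested.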

How the data were processed

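Bone marrow mRNA of 6 mice was sequenced with a stranded kit. The authors aligned reads with STAR (version 2.5) to GRCm38, after bcl2fastq 2.17.1.14, obtained gene counts from HTSeq (version 0.6.1) and deposited these raw counts per mouse. The strand setting of the counting is not given in the sources used here. Reads on no gene or on several (12.22% to 17.10% per mouse) were left out. Groups came from the sample labels. The p-values measure the spread between mice of 1 litter, and the control mice differ in genotype.

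Symbols, positions and exon lengths are from GENCODE M21 (GRCm38, 37693 of 39179 identifiers matched). Counts were fitted for all genes in R 4.3.3 with edgeR 4.0.16 (TMM, default filterByExpr, glmQLFit, glmQLFTest). SEs were derived from the F statistic. Ratios were compared by exact permutation tests over mice (scipy 1.17.1). Pattern distances used a pseudocount of 0.5. The fits were tested on simulated data. Alternatives were DESeq2 1.42.0, limma 3.58.1 (voom), other scalings and count filters, glmTreat with a limit of 1 on the log2 scale, blocking on the replicate number, and each mouse left out in turn. Python 3.11.15, pandas 2.3.3, numpy 2.4.6 and matplotlib 3.10.9 made tables and figures.

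The S100 genes and all lists were chosen with earlier results of these data known. Named genes were the 7 members, other S100 genes with at least 10 reads in a mouse, the genes past the thresholds in the receptor, partner and regulator lists, up to 3 with the largest change per direction in other lists, and the 5 genes nearest in pattern to *S100a8*, *S100a9* and *S100a4*. *Anxa2*, *Myh9*, *Cacybp*, *Bsg*, *Tlr4*, *Ager*, *Cd14*, *Cebpe*, *Spi1*, *Ngp*, *Pglyrp4*, *Lyz2*, *Siglecf* and *Gm4202* were added after their values were seen. Some genes that the rule names are not reported here. One marker, *Azu1*, had no matching identifier. Protein sequences were not analysed here.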

Additional observations from a re-analysis of the deposited data

How the results depend on the processing

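With 15 alternatives, the log2 fold changes of all 7 S100 genes kept their sign. DESeq2, voom, other scalings, count filters and the replicate block each left 1 S100 gene higher and 2 lower past the thresholds. With total counts only, the median of all genes moved to 0.12. The test against a log2 fold change of 1 left 611 of 2177 differentially expressed genes and 0 S100 genes higher and 0 lower, which follows from its stricter null. At an adjusted p under 0.05 with any fold change, a choice made after seeing the data, 2 were higher and 3 lower. With each mouse left out, 1205 (without *MxCDX2* mouse 3) to 2406 genes passed, 1 to 2 S100 genes were higher and 0 to 2 lower. The cause was not tested. The log2 difference in the ratio of *S100a8* to *S100a9* then ranged from -0.031 to 0.048. The counts of the gene lists with each mouse left out were added after seeing the data.

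The difference in the ratio of *S100a8* to neutrophil markers was -0.19 against the sum, but above 0 against 9 of 15 single markers: *Ltf* (0.24), *Lcn2* (0.20), *Mmp8* (0.53), *Mmp9* (0.015), *Ly6g* (0.35), *Cxcr2* (0.0044), *Retnlg* (0.85), *Chil3* (1.15) and *Fpr1* (0.59). That of *S100a4* was below 0 against *Ly6c2* (-0.28), *Ccr2* (-0.87), *Csf1r* (-0.28), *F13a1* (-1.36), *Ms4a6c* (-0.60) and *Klf4* (-0.34). These follow from how far each marker itself moved.

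With the replicate block, 2205 genes passed. Deviations of same-numbered mice correlated across genes at 0.156, 0.287 and 0.176, and those of other pairs at -0.336 to 0.122, each mouse best with its own number, a hint from the data only, since the control mice carry no replicate number in the labels. The block changed no S100 call. Depth did not limit the 7 genes, of which the least covered had 1287 reads or more in each mouse. It limited *S100a3*, *S100a7a* and *S100a2*.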
